A study of Sus scrofa with 6 samples.

Results

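PDK4 is the pyruvate dehydrogenase kinase gene of an interval of chromosome 9 that was read for CpG methylation in pig embryos by whole-genome bisulfite sequencing. The CpGs described here are those the deposited tables place in an exon, intron or untranslated region of PDK4 or in its promoter. They number 121 of the 14091 CpGs with a read in the tables, 74 in the gene and 47 in the annotated promoter. The embryos came from a Landrace, Yorkshire and Duroc cross and were taken whole at embryonic day 21. The control group held 3 embryos labelled untreated. The other 3 were parthenotes, which arise from an electrically stimulated egg without sperm, were carried by surrogate gilts and have no paternal genome. The labels do not say whether embryos of a group shared a litter, so the p-values set the groups against the spread between these embryos, which may in part be technical.

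The PDK4 enzyme sits in the mitochondrial matrix, where it phosphorylates and thereby switches off the pyruvate dehydrogenase complex. Pyruvate is then kept from becoming acetyl-CoA, and fatty acids are burned in place of glucose. The gene is known for its rise with fasting in muscle, heart and liver, through PPAR, FOXO and glucocorticoid signalling, and for its repression by insulin. CpG-dense promoters of this kind are usually free of methylation in mammals, while gene bodies and sparse CpGs around them are usually methylated. Of 10 other genes of the pyruvate dehydrogenase switch (the kinases PDK1, PDK2 and PDK3, the phosphatases PDP1 and PDP2, and the complex members PDHA1, PDHB, DLAT, DLD and PDHX), 0 were in the tables.

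PDK4 runs from 75246956 to 75260134 on the minus strand of chromosome 9 (Sscrofa11.1, RefSeq), a span of 13179 bp. It lies wholly inside an intron of ASB4, a gene of the plus strand that encodes an ankyrin repeat and SOCS box protein. Its intronic CpGs are therefore intronic CpGs of ASB4 too, and its promoter CpGs are listed as intronic in ASB4. The span of the long non-coding RNA gene LOC106504960, from 75213257 to 75285241, also covers PDK4 and its promoter. Distances below are counted from the annotated PDK4 start at 75260134, and upstream means towards higher coordinates.

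Embryos had 2886 to 3377 reads over the 121 CpGs, with medians of 23 to 28 reads per CpG. Over the interval each embryo had 380163 to 406443 reads and a median of 27 to 29 per CpG. Control 1 stood apart, with an unweighted mean level over tested CpGs of 75.2%, against 83.2 to 85.6% in the other 5 embryos. RNA was not analysed here. As a check of the labels, the promoter of the imprinted gene PEG10 was at 46.0% in controls and 92.6% in parthenotes.

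**Figure D1:**
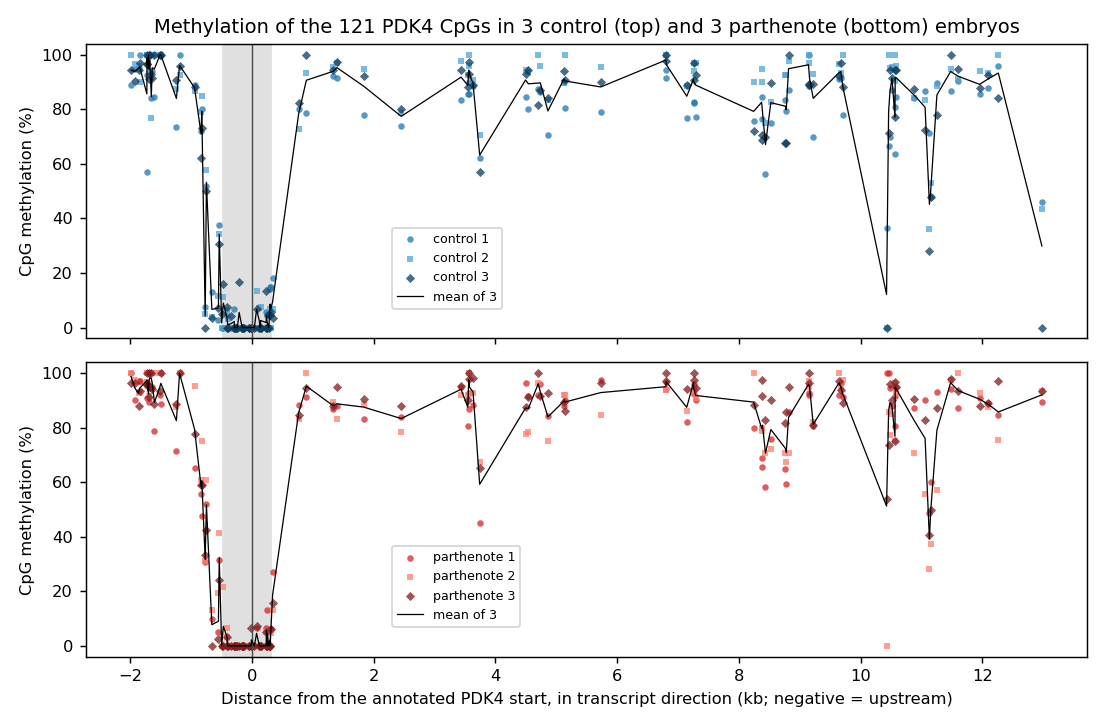
Methylation of each of the 121 PDK4 CpGs (y axis, percent of reads) against distance from the annotated start in transcript direction (x axis, kb), for the 3 controls (top) and the 3 parthenotes (bottom), with the mean of each group as a line. The grey band is the unmethylated stretch shared by the 6 embryos, whose CpGs averaged 8.05% at most, between a methylated upstream flank and a methylated gene body.

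The start of PDK4 was unmethylated in all 6 embryos, in a stretch of 783 to 1061 bp by a smoothed rule. The stretch begins in the promoter and ends inside the first exon. The stretch was defined per embryo as the run of CpGs around the start whose running level over 3 CpGs was under 20%, using CpGs with at least 5 reads. Its width was 972, 1061 and 972 bp in controls 1 to 3 and 864, 783 and 972 bp in parthenotes 1 to 3. Control 3 and control 1 thus matched parthenote 3, and the groups overlapped. The mean width was 1002 bp ± 51.4 for controls and 873 bp ± 94.8 for parthenotes (SD, n = 3 each), a difference of -129 bp (exact permutation p = 0.3, 2-sided). With 3 against 3 embryos this test cannot give a p under 0.1. The sign of the difference was not stable: with the limit of the running level at 10% it was 31.3 bp, and with a limit of 50% it was 18.7 bp. Without smoothing the width was 839 bp in each control and 811, 750 and 839 bp in parthenotes 1 to 3. The smoothed stretch took in the CpG 537 bp upstream, at 24.3 to 37.5%, in all embryos but parthenote 2. In control 2 it ended on a CpG at 57.9%.

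The stretch shared by all 6 embryos ran over 783 bp (75259823 to 75260605) and held 36 CpGs, or 4.6 per 100 bp, against 0.459 per 100 bp in the rest of the gene and 0.671 in the whole interval. It covers 21 CpGs upstream of the start and 15 in the first exon, of which 6 lie in the 5′ UTR and 9 in coding sequence. The methylation level was 2.48%, 2.53% and 3.34% in controls 1 to 3 (95% Wilson intervals 1.51 to 4.06%, 1.42 to 4.47% and 2.1 to 5.28%). In parthenotes 1 to 3 it was 1.37%, 1.99% and 0.962% (intervals 0.631 to 2.96%, 1.12 to 3.53% and 0.467 to 1.97%). Each embryo had 435 to 728 reads there. Each control was thus above each parthenote over the shared stretch as a whole, but not over its CpGs on either side of the start alone. The group means were 2.78% ± 0.48 and 1.44% ± 0.52 (SD, n = 3 each). They differed by -1.34 percentage points (exact permutation p = 0.1, 2-sided, the smallest that 3 against 3 allow). The intervals of control 3 and parthenote 3 did not overlap, while those of every other pair of a control and a parthenote did. A read counts at each CpG it spans, so these intervals are likely too narrow and their overlap is no test. In the interval 0.419% of 1911 windows of 500 bp had their 3 parthenotes below their 3 controls, and 6.59% had them above. Control 1, with its low level over the interval, enters both shares. These windows are of any level, so the shares are not matched to a stretch this low. The fixed windows over the stretch, from 75259500, 75260000 and 75260500, were at 4.09%, 1.24% and 19.2% in controls. In parthenotes they were at 3.51%, 0.479% and 20.7% (edgeR adjusted p = 0.995 for each). The share of cytosines that escaped bisulfite conversion is not given in the sources used here, and its part in levels this low was not tested.

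Within the shared stretch, 17 of the 36 CpGs had no methylated read in any embryo, 16 had a lower mean in parthenotes and 3 a higher one. The highest CpG averaged 8.05% over the 6 embryos. The 21 CpGs upstream of the start were at 0.826%, 2.55% and 3.97% in the controls. In parthenote 1 they had 0 methylated of 221 reads, which would allow a share of up to 1.36% if all counts were independent. In parthenotes 2 and 3 they were at 3.02% and 0.59%. The 15 CpGs downstream of the start were at 4.98%, 2.5% and 2.72% in controls 1 to 3. In parthenotes 1 to 3 they were at 2.78%, 0.787% and 1.29%. The groups overlapped on each side of the start (exact permutation p = 0.4 upstream and 0.3 downstream). The 5′ UTR was at 2.02% ± 2.68 for controls and 0.84% ± 0.73 for parthenotes (SD, n = 3 each), on 59 to 161 reads. The coding CpGs of the first exonic stretch, 10 with the one just past the shared stretch, were at 4.45% ± 3.35 and 4.08% ± 2.45 (SD, n = 3 each). Low methylation thus continued from the promoter across the 5′ UTR into the coding part of the first exon in both groups.

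The CpG nearest the start, 10 bp upstream of it at 75260144, had 0 methylated reads in 5 embryos, where 4 to 9 reads allow a share of up to 33.3 to 75%, and 1 of 15 in parthenote 3. Depth was lowest there: the 9 CpGs from 10 to 161 bp upstream had 1 to 15 reads. Across the shared stretch the median was 12.0 to 21.5 reads per CpG, against 32.0 to 33.0 in the gene body. For that reason 20 of its 36 CpGs had fewer than 10 reads in some embryo and were left out of the single-CpG test. The plot of the promoter shows the dip in depth beside the levels.

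**Figure D2:**
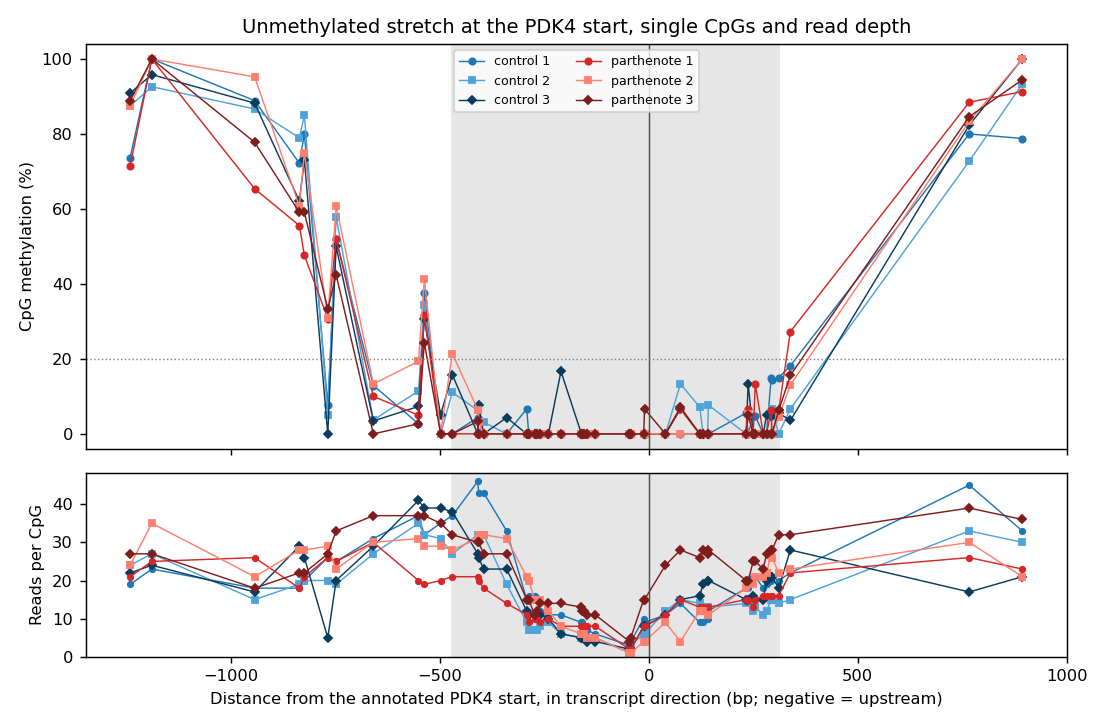
Methylation of single CpGs (upper panel, percent) and their read depth (lower panel, reads per CpG) within about 1 kb of the PDK4 start, 1 line per embryo, with the shared stretch in grey and the 20% limit dotted. With the limit of 20% the downstream side ends at the same CpG in the 6 embryos, the upstream side climbs through single CpGs at middle levels, and depth falls to 1 to 15 reads just upstream of the start.

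With the limit of 20% the downstream edge was the same CpG in every embryo, 311 bp downstream of the start at 75259823. Over the other limits and running sums it lay between 282 and 339 bp, and with a limit of 10% it varied more between embryos (282 to 311 bp) than at 20%. It was at 15.0%, 0% and 5.56% in controls 1 to 3 and 6.25%, 4.55% and 6.25% in parthenotes 1 to 3, the 0% resting on 14 reads, which allows up to 21.4%. The next CpG, 339 bp downstream and still in the first exon, was also low, at 18.2%, 6.67% and 3.57% in controls and 27.3%, 13% and 15.6% in parthenotes (15 to 32 reads). It falls outside the stretch because its running level includes the next CpG, which lies 428 bp further on, 767 bp downstream of the start in an intron. That CpG was already at 78.4% ± 5.02 for controls and 85.5% ± 2.67 for parthenotes (SD, n = 3 each). The change from unmethylated to methylated therefore lies somewhere in a span of 428 bp that holds no CpG, and its place was not measured. The running level reached 70% at 894 bp downstream in all embryos but parthenote 1, where it did so at 767 bp.

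The upstream edge lay at different CpGs with the limit of 20%, though with 10% it was 470 bp in 5 of 6 embryos. It was 659, 748 and 659 bp upstream of the start in controls 1 to 3 and 551, 470 and 659 bp in parthenotes 1 to 3. The means differed by -129 bp (exact permutation p = 0.3, 2-sided), which is the whole of the difference in width. The last CpG of the narrowest stretch, 470 bp upstream at 75260604, had 0 of 37, 3 of 27 and 6 of 38 reads methylated in controls 1 to 3 and 0 of 21, 6 of 28 and 0 of 32 in parthenotes 1 to 3. In each group some embryos had no methylated read at it, and parthenote 2 had the highest level, 21.4%.

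Beyond it the levels of neighbouring CpGs alternated, in the same order in every embryo. They were chosen for description after their values were seen. At 498 bp upstream 2 of 39 reads were methylated in control 3 and none in the other 5 embryos, where 20 to 35 reads allow up to 8.57 to 15%. At 537 bp upstream, 39 bp further, the level was 37.5%, 34.4% and 30.8% in controls 1 to 3 and 31.6%, 41.4% and 24.3% in parthenotes 1 to 3 (19 to 39 reads). At 551 bp it was low again, at 2.7 to 19.4%, and at 659 bp it was 0 to 13.3%. A second middle value followed at 748 bp, with 52%, 57.9% and 50% in controls and 52%, 60.9% and 42.4% in parthenotes (19 to 33 reads). Both CpGs at middle levels differed little between the groups, by -1.79 and -1.53 percentage points (edgeR adjusted p = 1 for each). In a whole embryo a middle level can come from some of the cells or from some of the chromosomes, and these cannot be told apart in tables of counts per cytosine. Without smoothing over neighbouring CpGs the upstream edge was 498 bp in all embryos but parthenote 2, where it was 409 bp.

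The CpG at 768 bp upstream (75260902) differed by 27.5 points, at 7.69%, 5.0% and 0% in controls and 30.8%, 31.0% and 33.3% in parthenotes, but was too shallow to test, with 5 reads in control 3 (its 0% allows up to 60.0%). At its minus-strand cytosine, opposite-strand reads carried A in 5 of 7 reads in control 1 and 4 of 6 in control 2, and control 3 had no call there. In the parthenotes it was 0 of 11, 0 of 6 and 0 of 6. A on the opposite strand is the sign of a C-to-T sequence variant, which bisulfite reads show as an unmethylated cytosine, and its part in this difference was not tested. At that cytosine the authors' deposited fraction, which takes such reads off, was 36.8% and 21.4% in controls 1 and 2, on expected counts of 5.43 and 4.67. In parthenotes 1 to 3 it was 40%, 27.3% and 33.3%. The plus-strand cytosine was at 0% in controls 1 to 3, on 7, 6 and 5 reads. It was at 18.2%, 42.9% and 33.3% in parthenotes 1 to 3, on 11, 7 and 6 reads. A C-to-T variant at the minus-strand cytosine also leaves the plus-strand one outside a CpG. Its level therefore cannot be read apart from the variant. With CpGs that carry such a sign, or lack a call on a strand, left out, the edge of control 2 moved from 748 to 659 bp and those of the other 5 embryos stayed.

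Further upstream the flank was methylated. The running level reached 70% at 836 bp upstream in the 3 controls and in parthenote 2, and at 943 bp in parthenotes 1 and 3. At the CpG 824 bp upstream the level was 80%, 85% and 73.1% in controls and 47.6%, 75% and 59.1% in parthenotes, a difference of -18.8 points that did not pass the test (edgeR adjusted p = 1). At 836 bp it was 71.1% ± 8.5 and 58.5% ± 2.64 (SD, n = 3 each), also not called (edgeR adjusted p = 1). The 21 promoter CpGs beyond every embryo's stretch, which reach to 1986 bp upstream, were at 85.0%, 88.4% and 91.1% in controls and 85.1%, 90.3% and 87.6% in parthenotes. The difference there was -0.52 points (exact permutation p = 0.8), and the groups overlapped fully. Of these 21 CpGs, 16 averaged 90% or more.

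The promoter as a unit (46 CpGs between 1000 bp before and 500 bp after the start) mixes the stretch with its edge. Its level was 11.06%, 12.7% and 12.5% in controls and 12.05%, 14.2% and 8.27% in parthenotes (664 to 1028 reads). The range of the parthenotes enclosed that of the controls. The means of 12.1% ± 0.91 and 11.5% ± 3.01 (SD, n = 3 each) differed by -0.59 points (edgeR adjusted p = 0.894 over 48 promoters, exon sets and intron sets, of which 6.25% were called at an adjusted p under 0.05). The sign turned without parthenote 3, to 1.03 points. It turned also over the promoter CpGs of the deposited tables, which lie 10 to 1986 bp upstream and so take in the methylated flank, at 47.4% ± 5.66 and 51.0% ± 5.68 (SD, n = 3 each). Neither setting gave a call. Among the 17 promoters of the interval, that of PDK4 was the fourth lowest, at 11.8% over both groups, between those of GNGT1 (9.26%) and GNG11 (12.3%). The step to GNG11 was smaller, and that to GNGT1 larger, than the spread of the PDK4 value over embryos, 2.02 points (SD, n = 6).

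**Figure D3:**
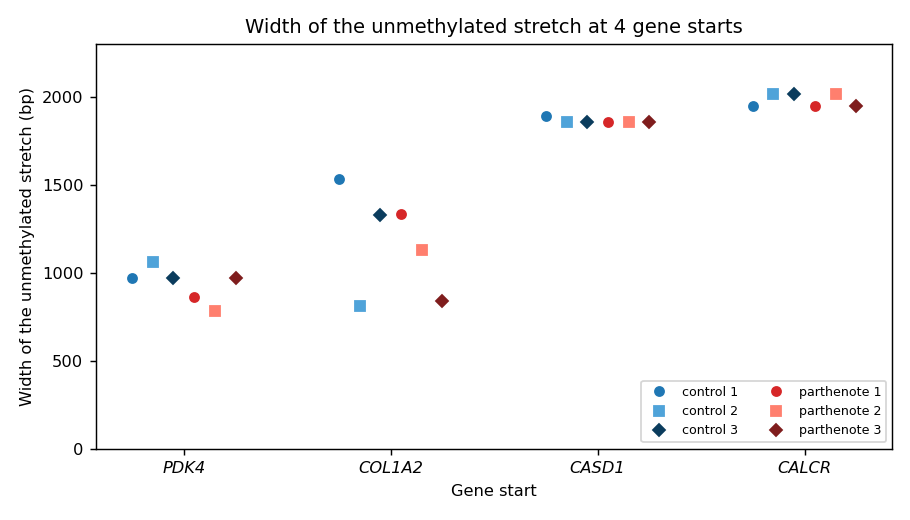
Width of the unmethylated stretch (y axis, bp, from 0) at the starts of PDK4, COL1A2, CASD1 and CALCR, 1 point per embryo. The points of PDK4 lie at 783 to 1061 bp, below those of CASD1 and CALCR in every embryo and among those of COL1A2.

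The PDK4 stretch was narrower than those at 2 of the 3 other unmethylated starts it was compared with, CALCR, COL1A2 and CASD1. These 3 were picked as protein-coding genes of the interval with low promoter levels. A promoter level depends in part on the width of the stretch, so the p-values below are not independent of that choice. Widths at other promoters of the interval, such as those of GNG11 (12.3%), PON2 (15.1%) and BET1 (20.9%), were not measured. At CASD1, a sialic acid O-acetyltransferase gene, the stretch was 1855 to 1888 bp wide in the 6 embryos. PDK4 was narrower in 6 of 6 embryos, with a mean difference of -923 bp ± 96.7 (SD, n = 6; exact sign-flip permutation p = 0.031, the smallest possible, 0.0469 adjusted over 3 genes). At CALCR, the calcitonin receptor gene, it was 1947 to 2016 bp wide, and PDK4 was narrower in 6 of 6 embryos with a mean difference of -1044 bp ± 105 (SD, n = 6; exact sign-flip permutation p = 0.031, adjusted 0.0469). The start of CALCR lies 131 bp from that of GNGT1, and the stretch covers both. At COL1A2, which encodes a chain of type I collagen, the width varied from 810 to 1535 bp. PDK4 was narrower there in 4 of 6 embryos, with a mean difference of -226 bp ± 335 (SD, n = 6), which did not pass (exact sign-flip permutation p = 0.188, adjusted 0.188). That comparison moved with the settings. It passed with a limit of 50% (-777 bp) and without smoothing (-321 bp), while the mean difference was -22.5 bp with at least 10 reads per CpG (narrower in 3 of 6 embryos, exact sign-flip permutation p = 0.906). The 6 embryos of both groups enter these comparisons together.

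Past the stretch the gene body was methylated in all embryos, at 80.4%, 88.9% and 82.9% in controls 1 to 3 and 84.3%, 83.1% and 89.0% in parthenotes 1 to 3 (59 CpGs, 1862 to 1996 reads). Control 1, lowest over the interval, was lowest here too, and the groups overlapped. The means were 84.1% ± 4.36 and 85.5% ± 3.15 (SD, n = 3 each), a difference of 1.39 points (exact permutation p = 0.5). Of the 59 CpGs, 52 averaged 70% or more over the 6 embryos and 25 averaged 90% or more. In the gene body the plus and minus strands of an embryo differed by -0.645 to 1.73 points, and in the shared stretch by -0.998 to 1.23.

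The 35 intronic CpGs were at 80.5%, 90.9% and 87.9% in controls and 86.8%, 86.3% and 91.1% in parthenotes. Their means of 86.4% ± 5.36 and 88.1% ± 2.62 (SD, n = 3 each) differed by 1.66 points (edgeR adjusted p = 0.892). Control 1 was again the lowest embryo, and without it the difference was -1.31 points. The ASB4 introns outside PDK4 and its promoter (1208 CpGs) were at 74.0%, 85.9% and 84.0% in controls and 85.4%, 83.2% and 87.1% in parthenotes. PDK4 introns were above that level in 6 of 6 embryos, a comparison chosen after the values were seen and not tested. Against only the ASB4 intron CpGs in the 10 kb beyond the 3′ end of PDK4, this did not hold throughout. Parthenote 1 was lower in PDK4 (86.8% against 87.6%), and control 1 (80.5% against 80.2%) and parthenote 2 (86.29% against 86.27%) were about level. The other embryos were higher in PDK4, as was every embryo against the 10 kb upstream of the promoter.

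**Figure D4:**
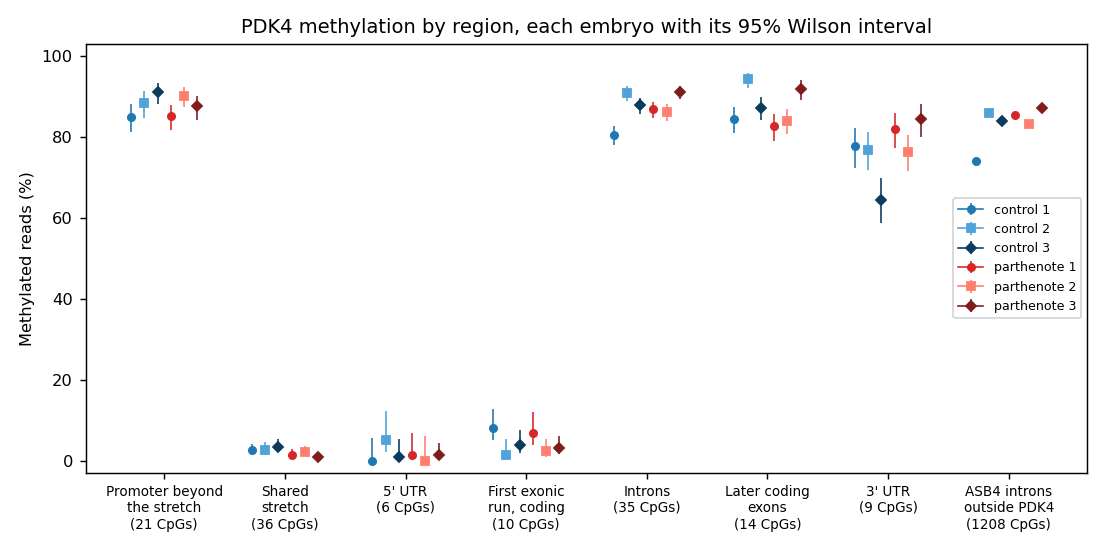
Methylated share of reads (y axis, percent) by region of PDK4, with the introns of the surrounding gene ASB4 at the right, 1 point per embryo with its 95% Wilson interval. The shared stretch, 5′ UTR and first exonic stretch lie under 10% in the 6 embryos, and the other regions between 64.5 and 94.3%.

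The coding exons after the first were methylated as well, at 84.5%, 94.3% and 87.2% in controls and 82.7%, 84.0% and 91.9% in parthenotes (14 CpGs, 483 to 562 reads). Group means were 88.7% ± 5.04 and 86.2% ± 5.0 (SD, n = 3 each), with overlapping embryos (exact permutation p = 0.5). All PDK4 exons together, with the UTRs and the unmethylated first exon (39 CpGs), were at 64.4% ± 6.24 and 61.8% ± 2.78 (SD, n = 3 each), a difference of -2.68 points (edgeR adjusted p = 0.818). The sign turned without control 2, to 0.75 points. Of 11 alternating exonic and intronic runs of CpGs along the gene, 1 had groups that did not overlap. It was an exonic pair at 1335 and 1395 bp downstream, with 91.9%, 96.2% and 95.9% in controls and 87.3%, 86.9% and 91.5% in parthenotes (exact permutation p = 0.1), while 7.01% of the 500 bp windows, which hold at least 3 CpGs, had groups that did not overlap in either direction. It was chosen after the values were seen, and the pair was too few CpGs for the window test.

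Introns read higher than the exonic CpGs past the stretch (24 with the 3′ UTR) in 6 of 6 embryos. The difference within an embryo was 0.176, 4.32 and 11.2 points in controls 1 to 3 and 5.95, 7.07 and 4.91 points in parthenotes 1 to 3, with a mean of 5.6 ± 3.6 (SD, n = 6; exact sign-flip permutation p = 0.031, the smallest possible). With CpGs that carry a variant sign left out, it was 4.84 points (exact sign-flip permutation p = 0.0625). Without the low first-exon CpG at 339 bp it was 3.64 points, positive in 5 of 6 embryos (exact sign-flip permutation p = 0.0625), and without both 2.73 points (exact sign-flip permutation p = 0.125). The exonic set pools unlike parts. Over the 6 embryos the later coding exons averaged 87.45%, introns 87.24% and the 3′ UTR 76.97%. The later coding exons were above introns in control 1, control 2 and parthenote 3, and below them in control 3 and parthenotes 1 and 2. The pooled difference thus does not describe introns against the later coding exons, a contrast that was not tested.

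The 3′ UTR held 9 CpGs, at 77.7%, 76.9% and 64.5% in controls and 81.9%, 76.3% and 84.5% in parthenotes. The difference of 7.92 points (exact permutation p = 0.3) came with 1 CpG, and over the other 8 the means were 80.8% ± 2.29 and 79.3% ± 4.89 (SD, n = 3 each). Among those 8, a pair 20 bp apart stayed at middle levels, chosen after its values were seen. The CpG 11149 bp downstream of the start was at 48%, 52.9% and 48% in controls and 60%, 37.5% and 50% in parthenotes, and the one at 11129 bp ranged from 28 to 71.4% over the 6 embryos. A pair of other gene body CpGs without a variant sign was below 70% on average, also picked after the values were seen. An exonic CpG 8436 bp downstream was at 67.1% ± 9.71 and 70.7% ± 12.3 (SD, n = 3 each), and an intronic one at 3741 bp was at 63.3% ± 6.72 and 59.3% ± 12.2 (SD, n = 3 each). An intronic CpG with a variant sign, 10425 bp downstream, ranged from 0 to 100% on 3 to 13 reads and was not tested.

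Of the 96 PDK4 CpGs with at least 10 reads in every embryo, edgeR called 1, against 0.429% of the 12359 tested in the interval. It was the last CpG of the 3′ UTR, 12977 bp downstream of the start at 75247157, and the 1 left out above. Its level was 46.2%, 43.6% and 0% in controls 1 to 3 and 89.3%, 93.3% and 93.6% in parthenotes 1 to 3 (28 to 49 reads, edgeR adjusted p = 0.00329). The 0% in control 3 rests on 49 reads, which allow up to 6.12%. Opposite-strand reads at its plus-strand cytosine carried A in 10 of 26, 15 of 24 and 26 of 27 reads in controls 1 to 3, and in 0 of 10, 0 of 31 and 0 of 26 in the parthenotes. The call thus fell on a CpG where the 3 controls carried the sign of a C-to-T variant and the parthenotes did not. At that cytosine the authors' deposited fraction, which takes such reads off, was 75% in control 1 and 100% in control 2 on expected counts of 8 and 5.62, 0% in control 3 on an expected count of 0.89, and 92.9 to 95.2% in the parthenotes. The minus-strand cytosine, where no opposite-strand read carried A, was at 46.2%, 37.5% and 0% in controls 1 to 3 and 80 to 93.5% in the parthenotes. A C-to-T variant at the plus-strand cytosine also leaves the minus-strand one outside a CpG. Its level therefore cannot be read apart from the variant. With the authors' expected counts in place of the raw totals, edgeR still called 1 PDK4 CpG. Those counts leave the minus-strand totals of controls 1 to 3 at 26, 24 and 25 reads. This setting therefore cannot separate the variant from methylation, and the part of the variant in the call was not tested. The call was lost without control 3 and without parthenote 3.

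The remaining tested CpGs gave no call. At an unadjusted p under 0.05 there were 4 of 96 PDK4 CpGs, or 4.17%, beside 3.29% of all tested CpGs. Parthenotes had the higher mean at 44 of the 96, the lower at 50 and the same at 2. After the called CpG, the largest differences were the -18.8 points at 824 bp upstream given above and 13.5 points at 1653 bp upstream. That second CpG was at 84.7% ± 7.98 for controls and 98.1% ± 3.21 for parthenotes (SD, n = 3 each), on 13 to 20 reads (edgeR adjusted p = 1). In fixed windows of 500 bp, edgeR called 0 of the 14 tested windows that touch PDK4 or the 1000 bp upstream of it, with 0 at an unadjusted p under 0.05, and limma and DESeq2 called 0 each. In the interval 0.314% of 1911 windows were called. The largest of the 14 differences was -9.22 points (84.8% in controls and 75.5% in parthenotes), in the window from 75251000 to 75251499 with 3 exonic CpGs (edgeR adjusted p = 0.995).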

How the data were processed

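The authors deposited 1 table per embryo. Per the file headers these give, for each CpG cytosine of the interval, counts of reads with C and with C or T, counts of opposite-strand reads with G and with G or A, an expected count corrected for C-to-T variants, and the methylation fraction, which is C over the expected count. The submitters' processing notes name BSMAP 2.87 and the build Sscrofa11.1. Trimming and duplicate removal are not given in the sources used here. Here raw counts were used and the strands of a CpG summed. Levels of a region are methylated over total reads, so a read spanning several CpGs counts at each. Wilson intervals and limits from 0 counts (3 counts of the total) cover counting error at most, without molecular identifiers. They take all counts as independent, so for regions of several CpGs they are likely too narrow. At a few reads the limit of 3 counts is rough and wider than the Wilson one. For 0 of 4 reads it is 75%, against a Wilson upper limit of 49.0%.

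Methylated and unmethylated counts were compared in edgeR 4.0.16 under R 4.3.3 by its quasi-likelihood test, with a coverage term per embryo and Benjamini-Hochberg adjustment over all units of a kind in the interval. CpGs needed 10 reads in every embryo, and windows and features 3 CpGs and 30 reads. Alternatives used limma 3.58.1 and DESeq2 1.42.0. Other values had exact permutation tests (scipy 1.17.1), and figures used matplotlib 3.10.9. A CpG has a variant sign where, in any embryo, A makes up at least 20% of at least 10 opposite-strand reads, or 1 strand has no call. Scripts were tested on simulated data. Gene spans come from the RefSeq table of the same build, strands from the deposited tables. By the rule for named items, these are PDK4 and its parts, the CpG nearest the start, those at the ends of the stretch, called CpGs, and the 3 with the largest differences. Members, lists and tests were chosen with earlier results of these data known. A planned motif search of the promoter was not run, and no sequence was used here.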

Additional observations from a re-analysis of the deposited data

How the results depend on the processing

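For introns against exons (pooled with the 3′ UTR), 2 alternatives were added after seeing the data, and all others were planned. Promoter difference: 3.56 points over the promoter CpGs of the deposited tables, and -1.95 to 1.03 with each embryo left out. Leaving out embryos gave -5.35 to 0.75 points for exons, -1.31 to 3.9 for introns, 4.48 to 6.68 for introns against exons (5 embryos cannot give a p under 0.0625) and 0 to 1 called PDK4 CpGs. The called CpGs were 0 without variant-sign CpGs, which removes the called site. With the strands tested apart, 2 PDK4 cytosines were called, which may belong to 1 CpG. The difference in width and in upstream edge was 31.3 and 27 bp with a limit of 10%, and 18.7 bp for each with 50%; leaving out embryos gave -178 to -83.7 bp for both. Introns against exons fell to 4.84 points without variant-sign CpGs, 3.64 without the first-exon CpG and 2.73 without both. PDK4 against COL1A2 was -777 bp with a limit of 50% and -321 bp without smoothing, but -22.5 bp with at least 10 reads per CpG and -164 bp without variant-sign CpGs. The cause of these changes was not otherwise tested. Of 133 alternative values, 110 were counted as keeping direction and side of the threshold, many being uncalled differences that stayed uncalled. They include the downstream edge, whose main difference of 0 bp has no direction to keep, and counts of calls, which have none either. The labels do not say whether replicate numbers pair embryos. Deviations of same-numbered embryos correlated at 0.13, 0.08 and -0.15 over 1911 windows. Those of other control and parthenote pairs ran from -0.30 to 0.25, so these values cannot settle a pairing. A replicate block gave 1 called PDK4 CpG and a difference in width of -129 bp. It raised the called CpGs of the interval from 53 to 80. The downstream edge ran from 282 to 339 bp over the settings, and its group difference from -9.33 to 4.33 bp. Depth kept 20 CpGs of the stretch from being tested.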

Other observations

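The intronic CpGs of ASB4 in the 10 kb beyond the 3′ end of PDK4 (63 CpGs) were at 80.2%, 85.1% and 84.3% in controls 1 to 3 and at 87.6%, 86.3% and 88.4% in parthenotes 1 to 3. Each parthenote was above each control there, by 4.23 points in the mean (exact permutation p = 0.1, the smallest possible). In the interval 6.59% of 1911 windows of 500 bp had their 3 parthenotes above their 3 controls, and the median window difference was 2.35 points in the same direction. In the 10 kb upstream of the PDK4 promoter (39 CpGs) the groups overlapped, at 72.7%, 89.0% and 84.4% in controls and 82.3%, 83.8% and 89.4% in parthenotes. Control 1 was the lowest embryo in both flanks. Both stretches were chosen by distance alone, and their values were seen before they were compared.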
